A study of Mus musculus with 6 samples.

Results

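DNA methylation is written, copied and removed by a small set of enzymes, and 10 genes that encode them were examined in mouse embryonic fibroblasts (MEFs) on their way to induced pluripotent stem cells. The genes are the TET oxidases *Tet1*, *Tet2* and *Tet3*, the glycosylase *Tdg*, the cytosine deaminase *Apobec1*, the maintenance factors *Dnmt1* and *Uhrf1*, and the de novo methyltransferase group *Dnmt3a*, *Dnmt3b* and *Dnmt3l*. They were chosen by name out of 54331 genes, with earlier results of the same comparison known, so the TPM values of the OSKA + 4OHT and OSKA − 4OHT groups are given for them as a description and no p-value of that contrast is printed for a member. All 10 were found in the data.

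The DNMT enzymes add a methyl group to the 5-position of cytosine, mostly where a guanine follows (a CpG). DNMT1, guided by UHRF1 to freshly replicated DNA, copies the pattern to the new strand, while DNMT3A and DNMT3B set new marks and DNMT3L, which has no catalytic activity of its own, stimulates them. TET enzymes oxidize 5-methylcytosine stepwise, TDG excises the later oxidation products, and base excision repair restores an unmodified cytosine. APOBEC1 deaminates cytosine and is best known for editing the apolipoprotein B messenger RNA in the gut. In reprogramming, silenced pluripotency genes have to lose the methylation of their regulatory regions.

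RNA was measured in 6 wells, 3 per group, at 10 days post infection (10 dpi). The MEFs came from male E13.5 embryos of Oct4-EGFP transgenic mice on a mixed background of C57BL/6, DBA/2 and ICR, and every well carried retroviral OSK (Oct4, Sox2 and Klf4) together with AKT-MER. AKT-MER is a myristoylated AKT fused to a modified estrogen receptor, which 4-hydroxytamoxifen (4OHT) activates. The OSKA + 4OHT group received 4OHT and the OSKA − 4OHT group received its vehicle, ethanol. No library with 4OHT but without AKT-MER was analysed here, so the action of AKT and any action of 4OHT of its own cannot be told apart in these wells. The study's methods describe infected cells that were replated into wells before 4OHT or vehicle was added, so the wells were divided after infection and p-values measure only the spread between wells.

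Values are TPM, a measure of transcript abundance that is scaled by transcript length, and they add up to 1000000 in each well. The relative depth read from low values was approximate and lay between 0.506 and 1 in the OSKA − 4OHT wells and between 0.806 and 0.931 in the OSKA + 4OHT wells, with 15814 to 18230 genes above 0 per well. A gene was tested with limma on log2(TPM + 0.5) where its mean was at least 1 TPM, which 15382 genes reached, and a call needed both a Benjamini-Hochberg adjusted p under 0.05 and a log2 fold change of more than 1 in either direction. By that rule 441 genes were called higher and 210 lower in the OSKA + 4OHT group. With a well left out, 111 to 303 were called higher and 63 to 127 lower. Of the calls with all wells 67.7% were higher, against 54.6% with TMM scaling and 53.1% after quantile normalization. Over all tested genes, the log2 fold change had a median of 0.14, and of 0.02 and −0.0047 with those scalings, so a member's change is read against this shift. The lists of markers and of pathway genes used below were, like the members, chosen with earlier results of these data known. Their p-values and counts are therefore a description and no independent evidence. The fibroblast markers were present in every well, with a summed level of 3086 to 3729 TPM in the OSKA − 4OHT group and 2258 to 2564 TPM in the OSKA + 4OHT group, a sum carried mainly by the type I collagens.

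**Figure D1:**
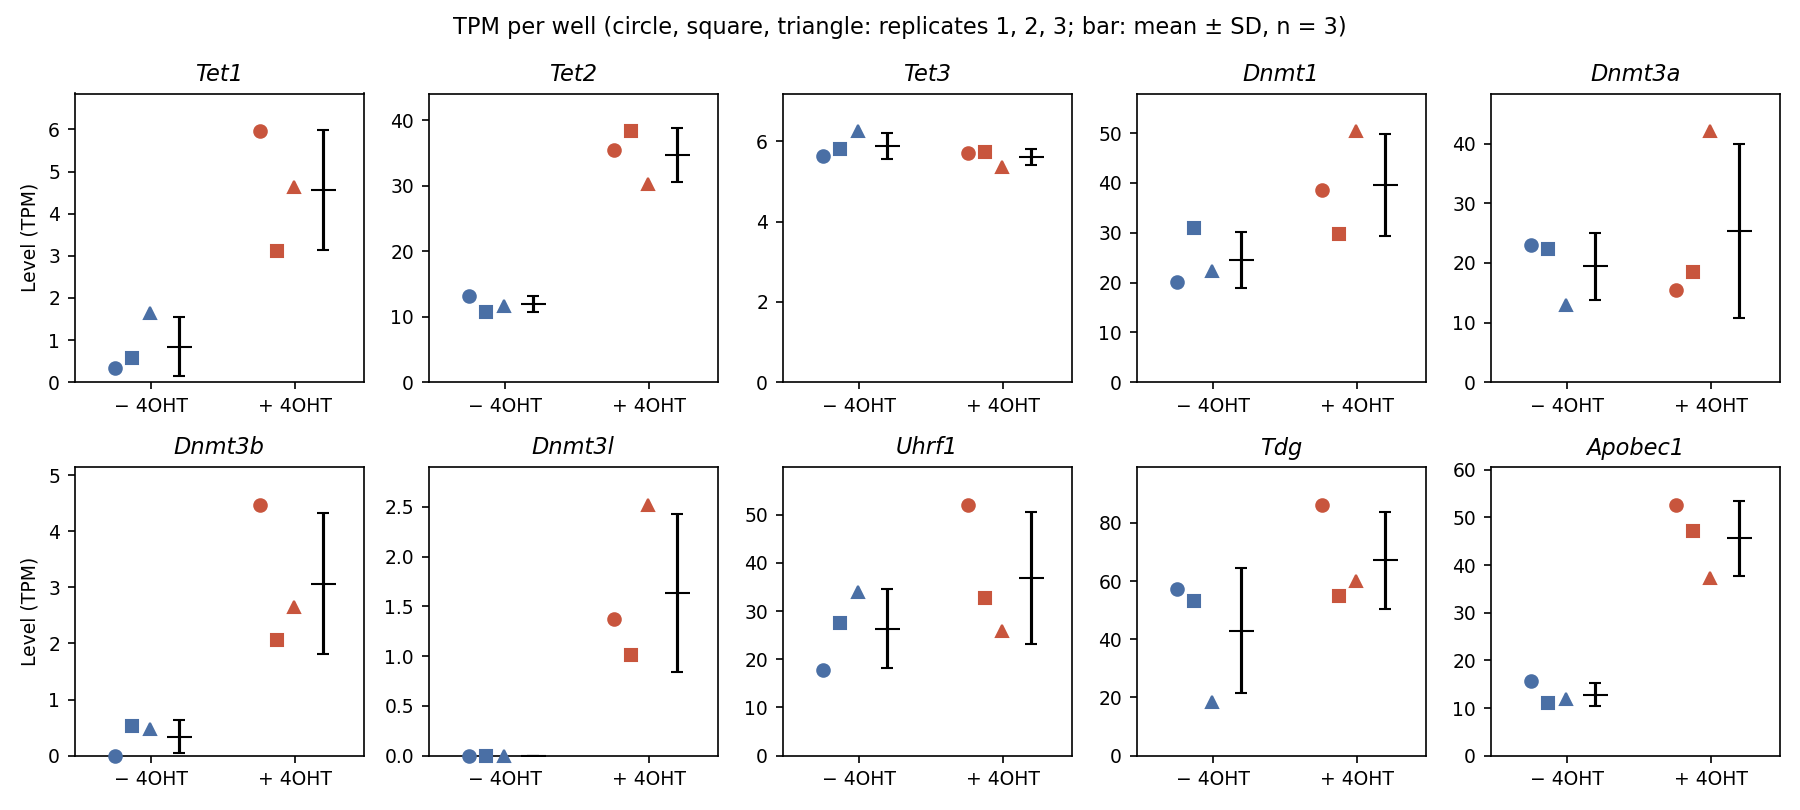
TPM of each of the 10 genes in each well (y axis, linear and starting at 0, scaled per gene), with the OSKA − 4OHT group in blue, the OSKA + 4OHT group in red, and a bar for the mean ± SD of 3 wells. *Tet1*, *Tet2*, *Dnmt3b*, *Dnmt3l* and *Apobec1* did not overlap between the groups, whereas *Tet3*, *Dnmt1*, *Dnmt3a*, *Uhrf1* and *Tdg* did.

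The start regions of the TET genes and of *Apobec1* are shown because the levels of *Tet1*, *Tet2* and *Apobec1* differed between the groups without overlap while that of *Tet3* hardly moved. Each run holds the 300 bases from 250 before to 50 after a transcription start in RefSeq on GRCm38.p6, on the gene's own strand, with every CpG in capitals. The windows lie at chr10:62887275-62887574 (*Tet1*), chr3:133544341-133544640 (*Tet2*), chr6:83441629-83441928 (*Tet3*) and chr6:122602395-122602694 (*Apobec1*), all on the minus strand. Of these, only the *Apobec1* window reaches the outer end of its annotated gene. No methylation was measured in these libraries.
Tet1: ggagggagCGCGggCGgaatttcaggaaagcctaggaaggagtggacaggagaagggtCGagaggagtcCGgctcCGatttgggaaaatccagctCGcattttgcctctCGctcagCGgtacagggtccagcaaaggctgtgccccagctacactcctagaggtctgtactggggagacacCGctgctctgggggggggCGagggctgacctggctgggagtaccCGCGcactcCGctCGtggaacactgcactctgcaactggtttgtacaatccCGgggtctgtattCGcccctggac
Tet2: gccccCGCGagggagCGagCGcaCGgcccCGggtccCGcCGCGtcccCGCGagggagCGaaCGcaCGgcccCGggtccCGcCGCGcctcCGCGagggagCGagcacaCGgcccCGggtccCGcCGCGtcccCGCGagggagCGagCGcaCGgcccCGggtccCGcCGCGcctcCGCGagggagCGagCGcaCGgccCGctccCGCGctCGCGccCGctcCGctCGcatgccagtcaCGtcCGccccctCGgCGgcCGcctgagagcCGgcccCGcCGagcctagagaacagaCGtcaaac
Tet3: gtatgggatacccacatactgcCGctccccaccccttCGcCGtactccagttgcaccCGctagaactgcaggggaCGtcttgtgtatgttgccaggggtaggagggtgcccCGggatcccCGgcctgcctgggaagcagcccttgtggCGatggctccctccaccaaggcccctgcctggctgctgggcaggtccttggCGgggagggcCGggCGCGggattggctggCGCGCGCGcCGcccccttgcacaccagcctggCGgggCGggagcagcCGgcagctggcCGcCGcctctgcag
Apobec1: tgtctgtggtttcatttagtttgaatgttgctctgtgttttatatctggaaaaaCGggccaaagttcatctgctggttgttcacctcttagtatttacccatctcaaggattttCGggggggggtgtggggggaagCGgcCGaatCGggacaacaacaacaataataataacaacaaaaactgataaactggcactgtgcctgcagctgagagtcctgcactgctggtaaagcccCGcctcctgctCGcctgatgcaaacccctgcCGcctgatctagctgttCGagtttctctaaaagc

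The *Tet2* window held 57 CpGs, and 99.8% of the 32851 windows of all genes held fewer. *Tet3* and *Tet1* had 22 and 17, and *Apobec1* had 9, against a median of 7 over all windows. The 10 genes had 17 windows between them, some of which overlap, with up to 47 CpGs in *Dnmt3a*, 33 in *Dnmt1* and in *Uhrf1*, 30 in *Dnmt3b*, 26 in *Tdg* and 6 in *Dnmt3l*. The *Dnmt3l* windows were thus the only ones beside that of *Apobec1* that stayed in single figures at every start.

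Motifs were searched on both strands as fixed letters, and a match is a description of the letters alone. The GC box GGGCGG, the letters bound by SP1, stood in 12 of the 17 windows, against 35.7% of all windows, and *Tdg* and *Apobec1* had none. The TATA box TATAAA stood in 1 of the 17, that of *Apobec1*, against 13.6% of all windows. There the match was on the strand opposite to the gene and began 212 bases before the transcription start. The E2F letters TTTCCCGC or TTTGGCGC were found in 1 of the 17, a *Dnmt1* window, against 1.56% of all. The hypoxia response core ACGTG occurred in 5 of the 17, in *Tet2*, *Dnmt3a*, *Dnmt3l*, *Uhrf1* and *Tdg*, against 19.6% of all. The FOXO letters GTAAACA (3.65% of all windows) and the octamer ATTTGCAT (1.74%) were in none of the 17.

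*Tet2* was the main TET transcript in all 6 wells. The gene lies at chr3:133463679-133545139 on GRCm38 (minus strand), and its product lacks the DNA-binding CXXC domain that TET1 has. Its level was 13.2, 10.7 and 11.7 TPM in the OSKA − 4OHT wells and 35.4, 38.4 and 30.3 TPM in the OSKA + 4OHT wells. The lowest OSKA + 4OHT well stood well above the highest OSKA − 4OHT well, and the spread within each group was narrow. The means were 11.9 ± 1.22 TPM and 34.7 ± 4.08 TPM (SD, n = 3), a ratio of 2.92, and the log2 fold change was 1.51 (SE 0.18).

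*Tet1*, whose product binds CpG-rich DNA and is abundant in embryonic stem cells, was a low transcript here. It lies at chr10:62804570-62908996 (minus strand), and the RefSeq window printed above is inside this span, not at its outer end. Its level was 0.328, 0.566 and 1.65 TPM in the OSKA − 4OHT wells and 5.96, 3.12 and 4.64 TPM in the OSKA + 4OHT wells. The groups did not overlap, and OSKA − 4OHT replicate 3 stood above the other two wells of its group. The means were 0.846 ± 0.702 TPM and 4.57 ± 1.42 TPM (SD, n = 3), and the log2 fold change was 2.00 (SE 0.51). Even when counted on the longest annotated transcript, 14369 bases, the level of any OSKA − 4OHT well stood for no more than about 22.2 reads, and the log2 fold change went from 1.21 with a pseudocount of 2 to 2.51 with 0.1. *Tet1* passed the filter on low values only through the OSKA + 4OHT wells.

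*Tet3* was nearly constant. This TET gene, best known for oxidizing the paternal genome in the zygote, lies at chr6:83362373-83459084 (minus strand). Its printed RefSeq window is inside this span too. Its level was 5.63, 5.81 and 6.26 TPM in the OSKA − 4OHT wells and 5.71, 5.73 and 5.37 TPM in the OSKA + 4OHT wells. The ranges overlapped and the means were 5.90 ± 0.323 TPM and 5.60 ± 0.202 TPM (SD, n = 3). Its log2 fold change was −0.07 (SE 0.21), and −0.19 and −0.24 with TMM scaling and quantile normalization. Ranked by the SD of log2(TPM + 0.5) among all tested genes, *Tet3* stood at 8.18% in the OSKA − 4OHT group and 4.80% in the OSKA + 4OHT group, near the bottom of the ranking.

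The 3 TET genes therefore differed in their share of TET transcripts. Their summed level was 19.1, 17.1 and 19.6 TPM in the OSKA − 4OHT wells and 47.1, 47.2 and 40.3 TPM in the OSKA + 4OHT wells, a ratio of 2.41 between the means. *Tet2* made up 68.9%, 62.8% and 59.7% of this sum in the OSKA − 4OHT wells and 75.2%, 81.3% and 75.2% in the OSKA + 4OHT wells. *Tet3* held 29.4% to 33.9% without 4OHT and 12.1% to 13.3% with it. The share of *Tet1* was 1.72%, 3.30% and 8.39% without 4OHT and 12.7%, 6.60% and 11.5% with it, so that the ranges of *Tet1* overlapped while those of *Tet2* and *Tet3* did not.

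**Figure D2:**
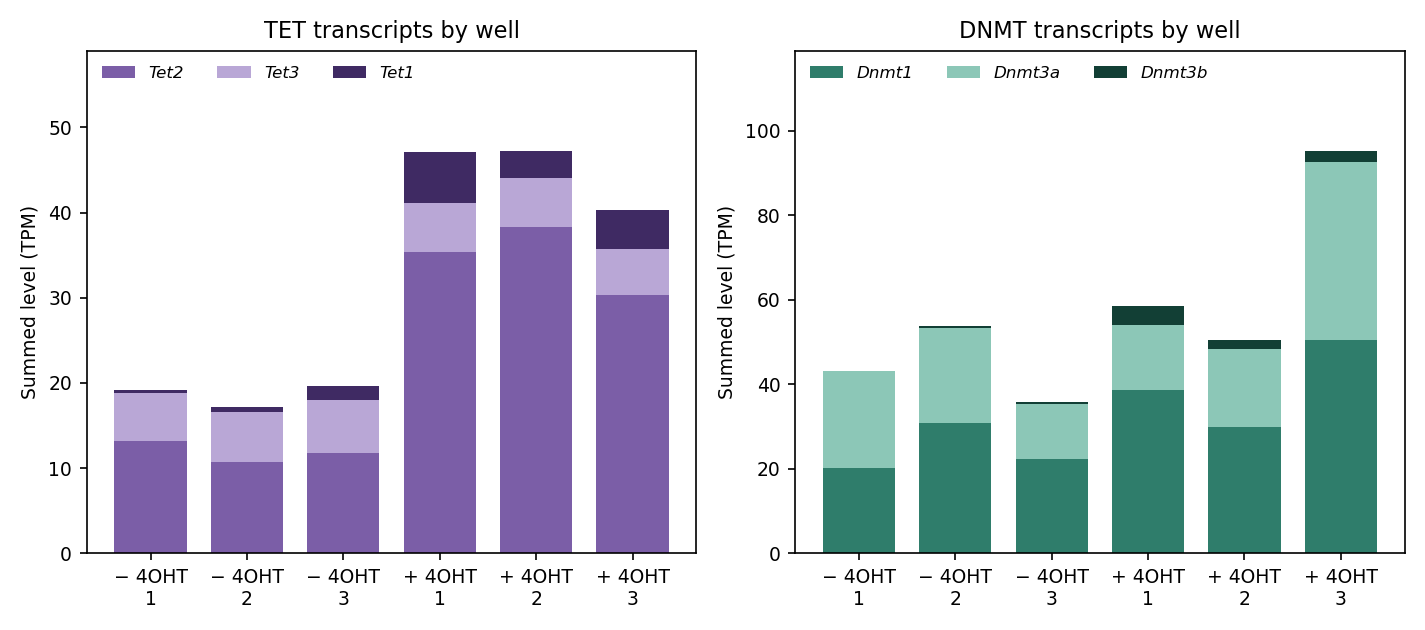
Stacked TPM (y axis, linear, starting at 0) of the TET genes (left) and of the catalytically active DNMT genes (right) in each of the 6 wells on the x axis, with one colour per gene. The TET sum is between 40.3 and 47.2 TPM in the OSKA + 4OHT wells and between 17.1 and 19.6 TPM in the others, mostly through *Tet2*, whereas the DNMT sum overlaps between the groups and is highest in OSKA + 4OHT replicate 3.

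Levels of paralogs were compared within wells, with an exact sign-flip permutation test over all 6 wells and Benjamini-Hochberg adjustment over 6 pairs. The 6 wells hold both groups, so a mean or SD over them also holds the difference between the groups. The smallest 2-sided p this test allows is 0.03125. *Tet2* exceeded *Tet3* in 6 of 6 wells, by 1.74 ± 0.87 on the log2 scale of TPM + 0.5 (SD, n = 6, exact permutation test, p = 0.03125, adjusted p = 0.0469 over the 6 pairs). Adjusted over only the 2 pairs without *Tet1* and *Dnmt3b*, a choice made after seeing the data, the adjusted p of the exact permutation test was 0.0625, so this difference does not hold under both. The mean of *Tet2* over *Tet3* was 0.95 in the OSKA − 4OHT group and 2.52 in the OSKA + 4OHT group. For pairs with *Tet1* or *Dnmt3b*, which are near 0 without 4OHT, values are given with no p. *Tet1* over *Tet2* was below 0 in 6 of 6 wells, with a mean of −3.32 in the OSKA − 4OHT group and −2.83 in the OSKA + 4OHT group on the same log2 scale. *Tet3* exceeded *Tet1* in 5 of 6 wells, the exception being OSKA + 4OHT replicate 1, and the means of *Tet1* over *Tet3* were −2.37 and −0.31. The ratio of *Tet2* to *Tet3* was 2.34, 1.85 and 1.87 in the OSKA − 4OHT wells and 6.20, 6.70 and 5.64 in the OSKA + 4OHT wells.

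*Tdg*, the thymine DNA glycosylase that follows the TET enzymes in the removal of oxidized methylcytosine, was the member with the highest mean in both groups. It lies at chr10:82629828-82650799 (plus strand). Its level was 57.3, 53.2 and 18.4 TPM in the OSKA − 4OHT wells and 86.3, 54.9 and 60.1 TPM in the OSKA + 4OHT wells. The groups overlapped, with OSKA − 4OHT replicate 3 lowest and OSKA + 4OHT replicate 1 highest. The means were 43.0 ± 21.4 TPM and 67.1 ± 16.8 TPM (SD, n = 3), and the log2 fold change of 0.77 (SE 0.46) fell to 0.25 without OSKA − 4OHT replicate 3.

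The *Tdg* values carry a caveat of sequence. The mouse annotation holds near-copies of *Tdg*, among them *Tdg-ps* (98.7% identical over 2968 bases), *Gm9855* (99.2% over 1194 bases) and *Gm5597* (99.3% over 1193 bases). Reads could be split among them by Salmon. *Tdg-ps* was listed at 0.426 TPM in OSKA − 4OHT replicate 3 and at 0 in the other wells. *Gm9855* and *Gm5597* were listed at 0 in every well, and the part of the copies in the *Tdg* values was not tested. *Tdg* also shares 367 bases with *Glt8d2* on the opposite strand, which was at 14.7, 14.5 and 12.9 TPM without 4OHT and 5.85, 6.00 and 4.08 TPM with it. The library kit marked the strand, but whether it was used in quantification is not given in the sources used here.

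*Apobec1* was the deaminase gene with the clearest separation. It lies at chr6:122577792-122602444 (minus strand). Its level was 15.6, 11.0 and 11.8 TPM in the OSKA − 4OHT wells and 52.7, 47.1 and 37.2 TPM in the OSKA + 4OHT wells. All OSKA + 4OHT wells stood above all OSKA − 4OHT wells, with OSKA + 4OHT replicate 1 highest and replicate 3 lowest. The means were 12.8 ± 2.48 TPM and 45.6 ± 7.84 TPM (SD, n = 3), a ratio of 3.56, and the log2 fold change was 1.79 (SE 0.22).

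Macrophages also express *Apobec1* and *Tet2*, and cultures of MEFs can hold such cells. All 12 macrophage markers of the list were detected above 1 TPM on average, and their summed level was 231.0 to 253.9 TPM in the OSKA − 4OHT group and 138.1 to 169.8 TPM in the OSKA + 4OHT group. That sum was carried mainly by *Lyz2* and *Laptm5*. Of the 12, 9 had a negative and 3 a positive log2 fold change, with a median of −0.74, and the 3 were *Fcgr1*, *Cd68* and *Itgam*. *Fcgr1*, an Fc receptor gene, was higher with 4OHT without overlap, at 0.390, 0.179 and 0.630 TPM against 0.641, 3.44 and 4.12 TPM (limma, Benjamini-Hochberg adjusted p = 0.256). *Fcgr1* reached the filter on low values only through the OSKA + 4OHT wells, so nothing is read from its test or its lack of overlap. *Cd68* was at 14.9 ± 2.92 TPM and 19.0 ± 3.46 TPM and *Itgam* at 5.20 ± 0.894 TPM and 5.22 ± 0.779 TPM (SD, n = 3), and these 4 genes (*Laptm5*, *Fcgr1*, *Cd68* and *Itgam*) were named after their values were seen. *Lyz2*, the lysozyme of macrophages, fell from 95.2 ± 5.63 TPM to 51.8 ± 7.77 TPM (SD, n = 3; limma, log2 fold change −0.88, Benjamini-Hochberg adjusted p = 0.0299), and it was the only one of the 12 with an adjusted p under 0.05. Over the list, 4 markers were lower and 1 (*Fcgr1*, with the limit above) was higher without overlap, against 10.0% and 18.1% of all tested genes. The part of macrophages in the levels of *Apobec1* and *Tet2* was not tested. In bulk RNA, fewer cells of a type and less RNA per cell cannot be told apart.

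*Dnmt1*, the maintenance methyltransferase, overlapped between the groups. It lies at chr9:20907209-20959888 (minus strand). Its level was 20.2, 30.8 and 22.3 TPM in the OSKA − 4OHT wells and 38.5, 29.8 and 50.4 TPM in the OSKA + 4OHT wells. OSKA + 4OHT replicate 2 lay just below OSKA − 4OHT replicate 2, and the remaining wells were separated. The means were 24.5 ± 5.64 TPM and 39.6 ± 10.3 TPM (SD, n = 3), and the log2 fold change was 0.67 (SE 0.26).

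*Uhrf1*, which recognizes hemimethylated CpGs and brings DNMT1 to them, overlapped more widely. It lies at chr17:56303321-56323486 (plus strand). Its level was 17.7, 27.4 and 34.0 TPM in the OSKA − 4OHT wells and 52.1, 32.7 and 25.8 TPM in the OSKA + 4OHT wells. OSKA + 4OHT replicate 1 was the highest of all and replicate 3 lay below 2 of the OSKA − 4OHT wells. The means were 26.4 ± 8.19 TPM and 36.9 ± 13.6 TPM (SD, n = 3), and the log2 fold change of 0.46 (SE 0.34) became 0.19 without OSKA + 4OHT replicate 1 and 0.21 without OSKA − 4OHT replicate 1. *Gm5648*, 98.3% identical to *Uhrf1* over 1590 bases, was listed at 0.465 TPM in OSKA + 4OHT replicate 3 and at 0 elsewhere.

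These 2 genes did not follow each other from well to well. *Uhrf1* over *Dnmt1* was 0.877, 0.890 and 1.52 in the OSKA − 4OHT wells and 1.35, 1.10 and 0.513 in the OSKA + 4OHT wells, so that the highest and the lowest ratio came from the replicates numbered 3. Both genes are known to be expressed most around S phase, and the summed level of 13 S phase markers was 751.7, 607.7 and 527.9 TPM without 4OHT and 976.5, 1012 and 748.5 TPM with it. Those sums overlapped at one well of each group, and their part in the levels of *Dnmt1* and *Uhrf1* was not tested.

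*Dnmt3a*, a de novo methyltransferase gene of many tissues, varied widely within the OSKA + 4OHT group. It lies at chr12:3806007-3914443 (plus strand). Its level was 23.0, 22.3 and 13.0 TPM in the OSKA − 4OHT wells and 15.4, 18.5 and 42.1 TPM in the OSKA + 4OHT wells. OSKA + 4OHT replicate 3 was the highest of all, while the other two wells of that group lay inside the range of the OSKA − 4OHT group. The means were 19.4 ± 5.61 TPM and 25.3 ± 14.6 TPM (SD, n = 3), and the log2 fold change of 0.28 (SE 0.43) became −0.15 without OSKA + 4OHT replicate 3. It was 0.02 without OSKA − 4OHT replicate 3 and 0.56 without OSKA + 4OHT replicate 1. With TMM scaling and quantile normalization it was 0.15 and 0.12.

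*Dnmt3b*, the de novo methyltransferase typical of early embryonic cells, was near 0 without 4OHT. It lies at chr2:153649450-153687730 (plus strand). Its level was 0, 0.537 and 0.473 TPM in the OSKA − 4OHT wells and 4.47, 2.06 and 2.65 TPM in the OSKA + 4OHT wells. The groups did not overlap, with means of 0.337 ± 0.293 TPM and 3.06 ± 1.26 TPM (SD, n = 3). The log2 fold change was 2.10 (SE 0.58), but the OSKA − 4OHT values stood for no more than about 3.65 reads per well, and the log2 fold change ran from 1.09 with a pseudocount of 2 to 3.18 with 0.1. *Dnmt3b*, like *Tet1*, passed the filter on low values only through the OSKA + 4OHT wells. *Dnmt3c*, 93.3% identical over 1655 bases, was listed at 0.473 TPM in OSKA − 4OHT replicate 1 and at 0 in the other wells.

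*Dnmt3l*, the cofactor gene, was listed at 0 in all 3 OSKA − 4OHT wells. It lies at chr10:78041947-78063622 (plus strand). In the OSKA + 4OHT wells it was at 1.37, 1.01 and 2.52 TPM, a mean of 1.63 ± 0.790 TPM (SD, n = 3). No more than about 5.33 reads stood behind any of these values, its mean over all wells was under 1 TPM, and it was not tested. *Dnmt3l* shares 67 bases with *Aire* on the opposite strand, listed at 0 in every OSKA − 4OHT well and at 0, 0.403 and 0.554 TPM with 4OHT. No fold is given against a group listed at 0.

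The sum of *Dnmt1*, *Dnmt3a* and *Dnmt3b* was 43.2, 53.7 and 35.8 TPM without 4OHT and 58.4, 50.4 and 95.1 TPM with it, which overlapped. *Dnmt3b* contributed at most 1.32% of it in an OSKA − 4OHT well and 2.79% to 7.66% in the OSKA + 4OHT wells. The ratio of the TET sum to the DNMT sum was 0.443, 0.319 and 0.549 in the OSKA − 4OHT wells and 0.806, 0.937 and 0.424 in the OSKA + 4OHT wells. It overlapped because of OSKA + 4OHT replicate 3, whose DNMT sum was the highest. In 6 of 6 wells *Dnmt1* and *Dnmt3a* were above *Dnmt3b*. On the log2 scale of TPM + 0.5 the mean of *Dnmt1* over *Dnmt3b* was 4.95 without 4OHT and 3.52 with it, and that of *Dnmt3a* over *Dnmt3b* was 4.60 and 2.78. *Dnmt1* was above *Dnmt3a* in 5 of 6 wells, by 0.54 ± 0.50 (SD, n = 6, exact permutation test, adjusted p = 0.0625), with OSKA − 4OHT replicate 1 as the exception. The group means of this log2 ratio were 0.35 without 4OHT and 0.74 with it.

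*Tet1*, *Dnmt3b* and *Dnmt3l* are genes that pluripotent cells express, and markers of such cells are given beside them. The summed level of the 10 markers was 30.6, 34.6 and 32.8 TPM in the OSKA − 4OHT wells and 74.2, 73.8 and 75.6 TPM in the OSKA + 4OHT wells. Without 4OHT the sum was carried mainly by *Tfcp2l1* and *Fgf4*. *Fgf4* was at 10.8 ± 1.58 TPM without 4OHT and 14.2 ± 2.35 TPM with it (SD, n = 3). *Utf1*, *Lin28a* and *Dppa4* were listed at 0 in every OSKA − 4OHT well. Of 8 markers tested, 3 rose with an adjusted p under 0.05 and none fell (limma), with 6 higher and 0 lower at an unadjusted p under 0.05. Of all 15382 tested genes, 542 were higher and 303 lower with an adjusted p under 0.05, and 3281 had an unadjusted p under 0.05. *Tdgf1*, a co-receptor gene of embryonic cells, rose from 1.60 ± 0.447 TPM to 9.99 ± 1.97 TPM (SD, n = 3; limma, log2 fold change 2.33, Benjamini-Hochberg adjusted p = 0.0128). *Nanog*, the pluripotency factor, rose to 4.04 ± 0.710 TPM from values listed at 0, 0.740 and 0 TPM (mean of all wells 2.15 TPM; limma, log2 fold change 2.73, Benjamini-Hochberg adjusted p = 0.0481). *Nanog*, *Zfp42*, *Utf1* and *Esrrb*, of which *Nanog* and *Zfp42* are 2 of the 3 that rose, reached the filter on low values only through the OSKA + 4OHT wells, so their calls support nothing further. *Fgf4* and *Esrrb* overlapped between the groups (limma, Benjamini-Hochberg adjusted p = 0.366 and 0.609). *Tfcp2l1*, a factor of naive pluripotency with the highest mean of the list, was at 17.0 ± 1.13 TPM and 24.4 ± 3.28 TPM (SD, n = 3; limma, Benjamini-Hochberg adjusted p = 0.173). The part of these cells in the levels of *Tet1*, *Dnmt3b* and *Dnmt3l* was not tested.

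**Figure D3:**
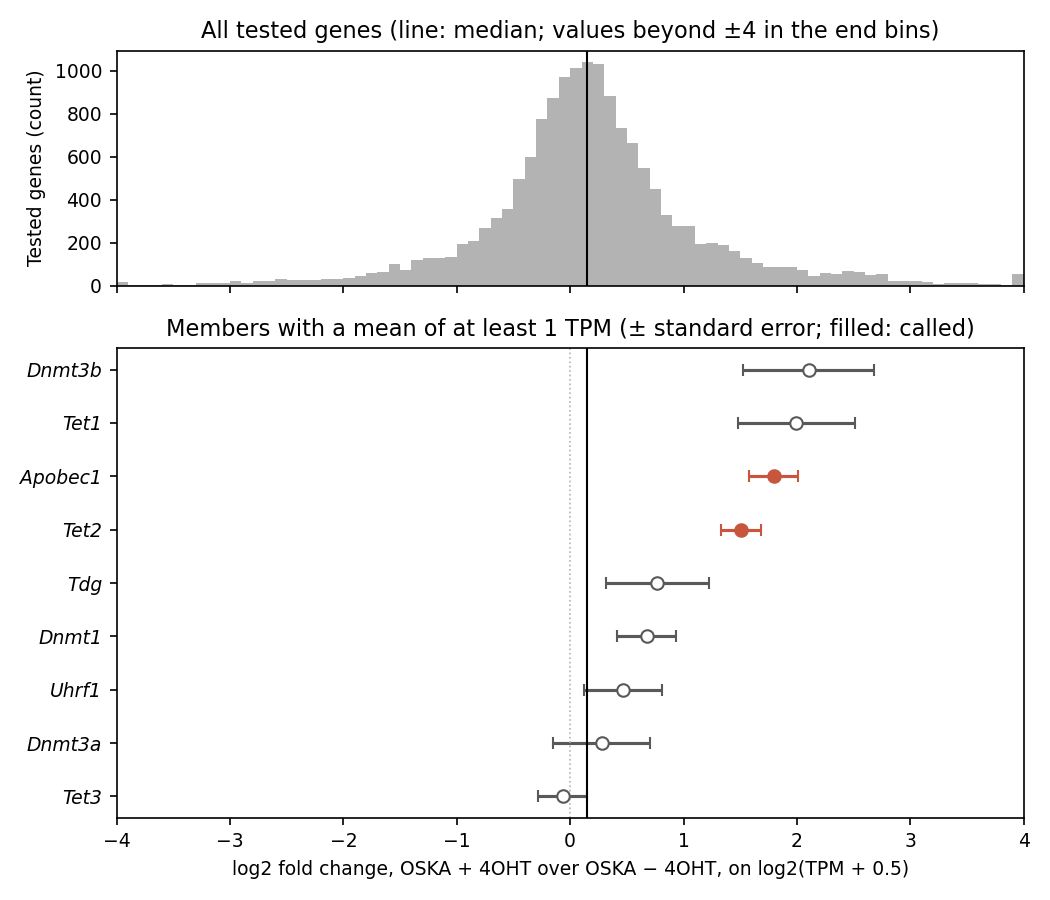
Upper panel: number of tested genes (y axis) by log2 fold change (OSKA + 4OHT over OSKA − 4OHT) on log2(TPM + 0.5), with a line at the median of 0.14. Lower panel: the 9 tested members on the same x axis, with standard error bars and filled points for *Tet2* and *Apobec1*, the 2 that were called. The values run from −0.07 for *Tet3* to 2.10 for *Dnmt3b*, and *Dnmt3b* and *Tet1* have wider bars than *Tet2* and *Apobec1*.

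Of the 9 members tested, 2 were called higher (*Tet2* and *Apobec1*), where 2.87% of all tested genes were, and 0 were called lower, where 1.37% were. The groups did not overlap in 4 of the 9, all higher with 4OHT (*Tet1*, *Tet2*, *Dnmt3b* and *Apobec1*), against 18.1% of all tested genes higher and 10.0% lower without overlap. Since the genes were chosen with this contrast known, nothing is read from these counts. With TMM scaling the log2 fold change was 1.90 for *Tet1*, 1.38 for *Tet2*, 2.03 for *Dnmt3b* and 1.67 for *Apobec1*. With the same scaling it was 0.55 for *Dnmt1*, 0.33 for *Uhrf1* and 0.64 for *Tdg*. The call of *Tet2* and that of *Apobec1* were both lost without OSKA + 4OHT replicate 1 and without replicate 2, while the log2 fold changes kept within 1.43 to 1.60 for *Tet2* and 1.68 to 1.94 for *Apobec1* whichever well was left out. Both calls were also lost with the replicate number as a block.

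By mean level the OSKA − 4OHT group was ordered *Tdg*, *Uhrf1*, *Dnmt1*, *Dnmt3a*, *Apobec1*, *Tet2*, *Tet3*, *Tet1*, *Dnmt3b* and *Dnmt3l*. Neighbours in this order overlapped in their wells except *Tet2* with *Tet3* and *Tet3* with *Tet1*. The OSKA + 4OHT group was ordered *Tdg*, *Apobec1*, *Dnmt1*, *Uhrf1*, *Tet2*, *Dnmt3a*, *Tet3*, *Tet1*, *Dnmt3b* and *Dnmt3l*. Here the neighbours that did not overlap were *Tdg* with *Apobec1* and *Dnmt3a* with *Tet3*. *Apobec1* thus moved from the fifth place to the second.

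Further genes of the pathway were examined in 7 lists (partners of the enzymes, repair factors, the methyl donor cycle, readers, other deaminases, and germline genes that the mark silences), 61 genes of which 42 were tested. Of these, 3 rose with an adjusted p under 0.05 and none fell (limma), while 9 higher and 1 lower had an unadjusted p under 0.05 (3281 of all 15382 tested genes did, in either direction), with a median log2 fold change of 0.40 against 0.14 over all tested genes. The 3 genes were *Parp1*, *Lig1* and *Bhmt*. Since the lists were chosen with earlier results of these data known, their p-values and counts are given as a description. Fewer genes of these lists were called under some alternatives. The count was 2 with no filter on low values and 2 with no mean-variance trend. It was 2 to 3 with a well left out, and 0 with the replicate number as a block. Over all 15382 tested genes, 542 were higher and 303 lower with an adjusted p under 0.05. The groups did not overlap in 13 of the 42 that were higher and 1 that was lower with 4OHT, against 18.1% and 10.0% of all tested genes.

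Base excision repair, which completes the removal begun by TET and TDG, had 11 of 12 genes tested, and 1 of them rose. *Parp1*, which senses the strand breaks of this repair and was the most abundant of the list, was at 39.5, 38.3 and 45.7 TPM in the OSKA − 4OHT wells and 121.7, 133.1 and 121.2 TPM in the OSKA + 4OHT wells. The wells within each group were close together and the groups were far apart. The log2 fold change was 1.60 (SE 0.14; limma, Benjamini-Hochberg adjusted p = 0.00376). All 11 tested genes had a positive log2 fold change, with a median of 0.66, where 9129 of all 15382 tested genes had one and their median was 0.14. Of the 11, 5 were higher without overlap, against 18.1% of all tested genes.

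Among the partners of maintenance methylation, 8 of 9 were tested and 1 rose. *Lig1*, the ligase that joins Okazaki fragments and whose methylated form recruits UHRF1, was at 17.6, 24.3 and 11.8 TPM in the OSKA − 4OHT wells and 47.5, 49.8 and 43.9 TPM in the OSKA + 4OHT wells. The groups did not overlap (limma, log2 fold change 1.42, SE 0.27, Benjamini-Hochberg adjusted p = 0.0381). *Pcna*, the sliding clamp with the highest mean of the list, was at 252.7 ± 20.2 TPM and 292.6 ± 84.6 TPM (SD, n = 3; limma, Benjamini-Hochberg adjusted p = 0.723). Among the 13 S phase markers 1 rose, *Rrm2*, the small subunit of ribonucleotide reductase (limma, log2 fold change 1.03, Benjamini-Hochberg adjusted p = 0.0320). Of the 13, 8 were higher and 0 lower at an unadjusted p under 0.05, against 3281 of all 15382 tested genes in either direction, and 7 were higher without overlap, against 18.1% of all tested genes. Their median log2 fold change was 0.69.

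The methionine cycle makes S-adenosylmethionine, the methyl donor of the DNMT enzymes, and 9 of its 11 listed genes were tested. *Bhmt*, which remethylates homocysteine with betaine and is best known from liver, was the 1 that rose. It was at 3.74, 2.78 and 3.33 TPM in the OSKA − 4OHT wells and 16.7, 20.2 and 14.6 TPM in the OSKA + 4OHT wells. The groups were clearly apart (limma, log2 fold change 2.22, SE 0.23, Benjamini-Hochberg adjusted p = 0.00669). *Ahcyl1*, the most abundant of the list, was at 115.2 ± 11.6 TPM and 122.2 ± 40.8 TPM (SD, n = 3; limma, Benjamini-Hochberg adjusted p = 0.946), and the median log2 fold change of the list was 0.22.

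None of the 5 tested TET partners, of 7 listed, passed the test in either direction (limma), and 2 that were higher and 1 that was lower had an unadjusted p under 0.05, as did 3281 of all 15382 tested genes. *Ogt*, the O-GlcNAc transferase that binds TET2 and TET3 and the most abundant of them, was at 32.6, 33.4 and 33.9 TPM in the OSKA − 4OHT wells and 50.1, 46.4 and 38.8 TPM in the OSKA + 4OHT wells. Its groups did not overlap, but it did not pass the test (limma, log2 fold change 0.42, Benjamini-Hochberg adjusted p = 0.189). *Cxxc5*, which encodes a CXXC protein that binds TET2 and is named here after its values were seen, was the 1 partner gene that was lower without overlap. It was at 18.7, 20.5 and 12.5 TPM without 4OHT and 8.47, 9.61 and 6.34 TPM with it (limma, log2 fold change −1.02, Benjamini-Hochberg adjusted p = 0.0883). *Sall4*, a zinc finger factor gene of embryonic stem cells that is also among the pluripotent markers and is likewise named after its values were seen, had the largest change of the list. It was at 0.898, 2.61 and 1.60 TPM without 4OHT and 11.2, 3.82 and 18.8 TPM with it, without overlap (limma, log2 fold change 2.25, Benjamini-Hochberg adjusted p = 0.0960).

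None of the 7 methyl-CpG readers passed the test in either direction (limma), and 0 had an unadjusted p under 0.05, with a median log2 fold change of −0.02. *Mbd3*, the most abundant of them and part of the NuRD complex, was at 77.0 ± 11.7 TPM and 89.9 ± 8.64 TPM (SD, n = 3; limma, Benjamini-Hochberg adjusted p = 0.493).

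The other deaminases and the cofactors of APOBEC1 were mostly low. Of 7 listed genes, *Apobec3* and *Syncrip* reached a mean of 1 TPM, and neither passed the test (limma, 0 at an unadjusted p under 0.05). *Syncrip*, an RNA-binding protein gene and the most abundant of them, was at 128.8 ± 37.1 TPM and 115.5 ± 5.25 TPM (SD, n = 3; limma, Benjamini-Hochberg adjusted p = 0.779). The genes that follow were named after their values were seen. *Apobec3*, which encodes a restriction factor of retroviruses, was at 48.9, 54.3 and 38.4 TPM without 4OHT and 117.5, 56.1 and 64.9 TPM with it (limma, Benjamini-Hochberg adjusted p = 0.267), without overlap. *A1cf*, which encodes a cofactor of APOBEC1 in RNA editing, was listed at 0 in all 6 wells, and *Rbm47*, another such cofactor gene, stood between 0.435 and 1.44 TPM. *Apobec1* was thus measured at up to 52.7 TPM beside little or no transcript of *A1cf* and *Rbm47*, while *Syncrip* of the same list was abundant.

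**Figure D4:**
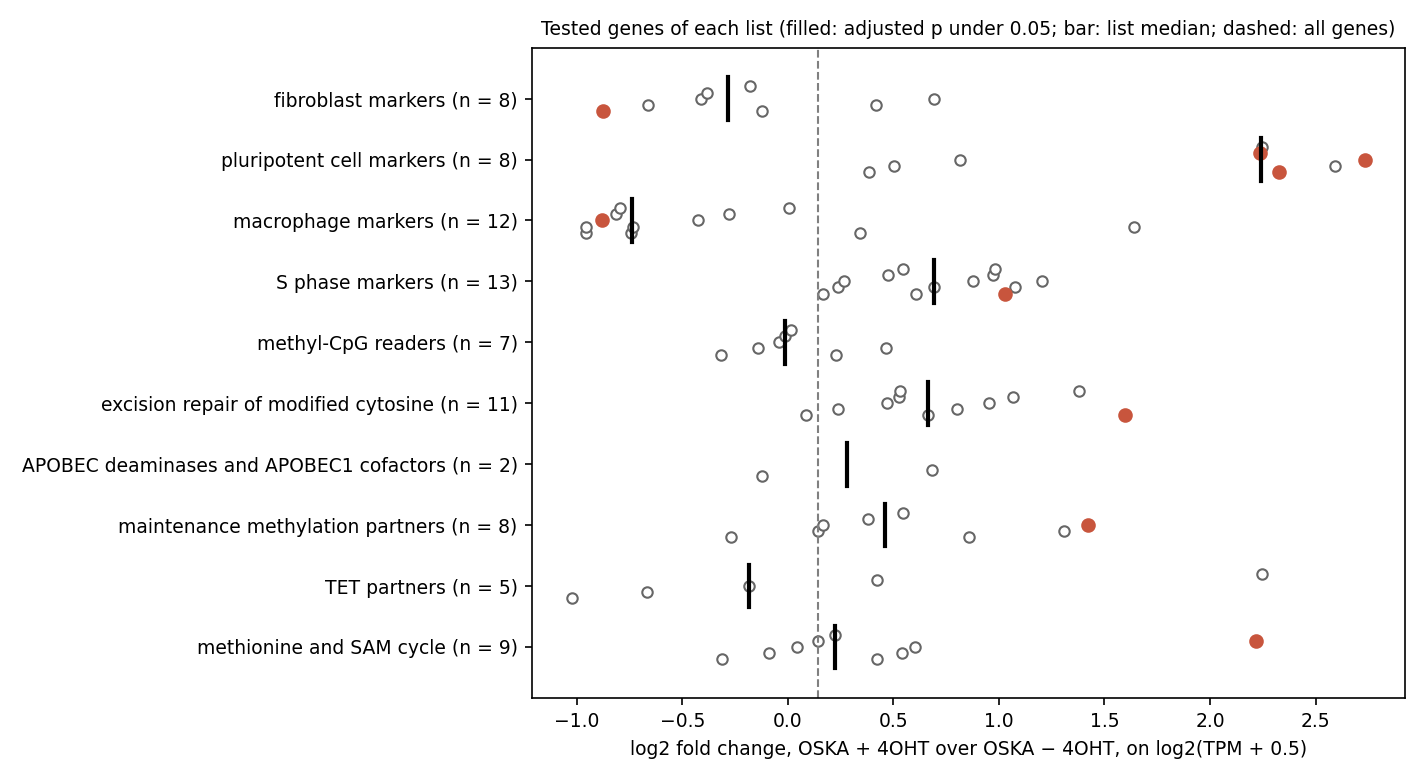
Log2 fold change (x axis, log2(TPM + 0.5) scale) of each tested gene of 10 lists (rows, with the number tested), as filled points where the adjusted p was under 0.05 and open points otherwise, with a bar at the list median and a dashed line at the median of all tested genes, 0.14. The tested markers of pluripotent cells run from 0.39 to 2.73, and 4 of these 8 passed the filter on low values only through the OSKA + 4OHT wells. The macrophage markers have the lowest median, −0.74, and the methyl-CpG readers lie around 0.

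Germline genes whose promoters are methylated in somatic cells are a known target of the DNMT enzymes. None of 8 such genes reached a mean of 1 TPM and none was tested. *Taf7l*, with the highest mean of them, was listed at 1.63, 0 and 0 TPM in the OSKA − 4OHT wells and at 0, 0 and 0.491 TPM in the OSKA + 4OHT wells. The fibroblast markers had 1 gene of 8 with an adjusted p under 0.05, *Col1a2*, a chain of type I collagen, which fell from 1641 ± 144.6 TPM to 900.9 ± 154.8 TPM (SD, n = 3; limma, log2 fold change −0.88, Benjamini-Hochberg adjusted p = 0.0285). Without overlap, 5 of the 8 were lower and 2 were higher, against 10.0% and 18.1% of all tested genes. The higher ones, named after their values were seen, were *Thy1*, a surface glycoprotein gene, at 179.4 ± 40.5 TPM and 293.0 ± 86.7 TPM, and *Dcn*, the decorin gene, at 138.3 ± 14.8 TPM and 184.6 ± 15.4 TPM (SD, n = 3; limma, Benjamini-Hochberg adjusted p = 0.203 and 0.141).

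Genes with the most similar profile were found by the root mean square difference of gene-centred log2(TPM + 0.5) over the 6 wells. For *Tet2* these were *Nt5e* (0.07), *Plekhg1* (0.07) and *Drp2* (0.09). *Nt5e*, which encodes the cell surface 5′-nucleotidase CD73, was at 17.6, 15.1 and 16.8 TPM without 4OHT and 43.5, 52.6 and 39.4 TPM with it, in the same order of wells as *Tet2* within each group. For *Tet1* they were *Scn8a* (0.23), *Gria1* (0.24) and *AC091309.4* (0.30), all at 1.12 TPM or less in the OSKA − 4OHT wells. Because *Tet1* and its nearest genes were this low without 4OHT, their distances are not compared with those of *Tet2*.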

How the data were processed

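The authors trimmed the reads of polyA libraries with Trim Galore, quantified them against the mouse transcriptome with Salmon, and deposited TPM per gene and well. Versions and the annotation release are not given in the sources used here. Columns of the authors' own comparison, which hold log2 changes, log2 average levels, a test score and a p-value per gene, were deposited beside the TPM and not used. Symbols and positions came from GENCODE M21 on GRCm38, and 54097 of 54331 identifiers matched. Promoter windows came from RefSeq.

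The members and the gene lists were chosen with earlier results of these data known. The text names all 10 members, for each list up to 2 genes per direction with the largest log2 fold change at an adjusted p under 0.05 and the gene with the highest mean TPM, and the 3 nearest profiles of *Tet1* and *Tet2*. Other names are marked, or stand for copies, overlapping genes and markers that limit a count. All 102 list genes were matched. A result for 1 list gene is not reported here.

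Groups were compared with limma 3.58.1 in R 4.3.3 (mean-variance trend, no block) on log2(TPM + 0.5), over the 15382 genes whose mean reached 1 TPM, with Benjamini-Hochberg adjustment. TPM keep no depth. Relative depth and approximate reads were read from genes with 1 transcript over 600 bases, with an assumed fragment of 250 bases, where 37.3% to 40.9% of low values lay within 0.15 of a whole read, against 30% if evenly spread, so reads are approximate and no count test was run. Paralogs were compared with an exact sign-flip test in Python 3.11.15 with numpy 2.4.6, and copies were searched for with BLAST 2.17.0. Alternatives were other pseudocounts, filters and scalings, no trend, the replicate number as a block, and leaving out each well.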

Additional observations from a re-analysis of the deposited data

How the results depend on the processing

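Depth limits *Tet1*, *Dnmt3b* and *Dnmt3l*, whose OSKA − 4OHT values rest on few reads or none. All 9 tested members kept their direction under the other pseudocounts, filters, scalings and variance models and without each well, except *Dnmt3a*, which turned to −0.15 without OSKA + 4OHT replicate 3. Read against the median of all tested genes, *Dnmt3a* also turned without OSKA − 4OHT replicate 3, to −0.14. The size moved with the pseudocount for *Tet1* and *Dnmt3b*, and *Dnmt3b* and *Tet1* were not tested with a mean of at least 5 TPM. Leaving out a well gave 111 to 303 genes called higher and 63 to 127 called lower, 0 to 2 members called and 2 to 3 called genes in the 7 pathway lists. With no filter, and with no mean-variance trend, 2 genes of these lists were called. Without OSKA + 4OHT replicate 1 or 2 no member was called. Whether wells with the same replicate number belong together is not given in the sources used here. Same-numbered wells of the groups had correlations of their deviations of 0.0235, 0.0341 and 0.0837. Those of differently numbered wells ran from −0.062 to 0.0327. OSKA + 4OHT replicate 1 correlated best with OSKA − 4OHT replicate 2 (0.0327). These values do not settle which fit is right, so the blocked fit is given beside the main one. With the replicate number as a block, limma called 31 genes higher and 16 lower, 0 members and 0 genes of the 7 pathway lists, with 2873 genes at an unadjusted p under 0.05. For the paralogs, leaving out a well gave −3.19 to −2.88 for *Tet1* over *Tet2*, 1.55 to 1.92 for *Tet2* over *Tet3*, 4.00 to 4.48 for *Dnmt1* over *Dnmt3b* and 3.32 to 4.09 for *Dnmt3a* over *Dnmt3b*, and no p of 5 wells can go under 0.0625. Adjusted over the pairs without *Tet1* and *Dnmt3b*, added after seeing the data, *Tet2* over *Tet3* stays at 1.74 and its adjusted p by the exact permutation test is 0.0625.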
